A study of Homo sapiens with 3 samples.

Results

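The 10 genes described here comprise markers of mural cells, genes of contractile proteins, and the PDGF ligand and receptor genes PDGFB and PDGFRA, read in chromatin of hCMEC/D3. They were chosen by symbol (PDGFRB, PDGFRA, PDGFB, RGS5, ACTA2, TAGLN, CNN1, CSPG4, KCNJ8 and MCAM) from the 20037 protein-coding genes of a RefSeq gene table, and all 10 matched. hCMEC/D3 is an immortalized line of endothelial cells of human brain microvessels, here grown to confluence in endothelial medium on collagen. The samples at hand have no other cell type, treatment or time. They are 1 ATAC library, named replicate 2 in its title, and 2 RNA libraries that are not used here because their tables list transcripts that no table at hand pairs with genes. With 1 library and 1 group there was no test, and every comparison below describes that library.

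Mural cells are the pericytes and smooth muscle cells that wrap the endothelial tube. Endothelial cells secrete PDGF-BB, the dimer of the PDGFB product, and mural cells carry its receptor PDGFRB, through which they are recruited to growing vessels. Smooth muscle cells express the contractile proteins encoded by ACTA2, TAGLN and CNN1 under serum response factor, which binds an A/T-rich element called the CArG box. In brain, pericytes are dense along capillaries and are known for their part in forming the blood-brain barrier.

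ATAC-seq marks accessible DNA with the Tn5 transposase, and a peak is a stretch where tags pile up over the local background. Pileup is given in tags, as the mean over a broad peak. Fold is the authors' ratio of that pileup to the local background. Without a control, that background came from the same library, over a range of 10000 bp. Neighbouring peaks can therefore count in it and lower each other's fold. A peak was placed at an end when it lay within 1 kb of either end of a gene, inside when it lay in the gene away from its ends, and in the flank when it lay within 10 kb outside. The list held 106415 peaks from 22188172 tags, and its lowest pileup was 8.0 tags, so accessibility under that level would not show at this depth. A call needs more tags where the local background is higher, as at the inner MCAM peak on 22.2 tags. An uncalled stretch there can hold more than 8.0 tags. RefSeq start sites were at hand for 8 of the 10 genes, not for PDGFB and TAGLN, and 3 genes (ACTA2, PDGFRA and RGS5) had 2 start sites each.

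The start sites differed in whether a peak covered them, and the 250 bases before 8 of them are shown to let that be read against the sequence. Sequences are from RefSeq on GRCh38.p14, 5′ to 3′ on the strand of the gene. Capitals mark matches, on either strand, to the TEAD element GGAATG or to TGANTCA, an AP-1 pattern with any middle letter. They also mark a CArG box with at most 1 letter that is not A or T among its 6 middle letters. For each of the first 3 genes the outer start, at the end of the annotated gene, comes before the inner start.
ACTA2 outer start, chr10:88991338-88991587, minus strand, under a peak: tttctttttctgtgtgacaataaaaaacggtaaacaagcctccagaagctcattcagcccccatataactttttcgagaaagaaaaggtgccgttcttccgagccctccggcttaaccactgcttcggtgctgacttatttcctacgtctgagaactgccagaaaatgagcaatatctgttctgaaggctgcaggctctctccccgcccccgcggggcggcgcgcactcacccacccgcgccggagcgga
ACTA2 inner start, chr10:88952774-88953023, minus strand, no peak: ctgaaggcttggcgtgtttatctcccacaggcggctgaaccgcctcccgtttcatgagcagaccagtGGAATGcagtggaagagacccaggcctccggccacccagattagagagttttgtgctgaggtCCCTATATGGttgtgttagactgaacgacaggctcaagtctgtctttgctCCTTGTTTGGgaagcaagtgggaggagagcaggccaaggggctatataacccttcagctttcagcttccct
RGS5 outer start, chr1:163321736-163321985, minus strand, under a peak: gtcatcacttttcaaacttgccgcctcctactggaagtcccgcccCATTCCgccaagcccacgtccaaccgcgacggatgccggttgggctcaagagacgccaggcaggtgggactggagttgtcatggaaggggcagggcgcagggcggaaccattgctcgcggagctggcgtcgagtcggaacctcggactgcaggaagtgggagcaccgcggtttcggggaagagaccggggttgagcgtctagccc
RGS5 inner start, chr1:163202917-163203166, minus strand, under a peak: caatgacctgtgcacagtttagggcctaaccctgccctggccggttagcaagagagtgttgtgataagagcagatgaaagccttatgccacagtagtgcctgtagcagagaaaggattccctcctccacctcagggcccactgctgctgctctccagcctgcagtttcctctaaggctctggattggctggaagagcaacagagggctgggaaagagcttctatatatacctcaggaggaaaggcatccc
PDGFRA outer start, chr4:54229043-54229292, plus strand, no peak: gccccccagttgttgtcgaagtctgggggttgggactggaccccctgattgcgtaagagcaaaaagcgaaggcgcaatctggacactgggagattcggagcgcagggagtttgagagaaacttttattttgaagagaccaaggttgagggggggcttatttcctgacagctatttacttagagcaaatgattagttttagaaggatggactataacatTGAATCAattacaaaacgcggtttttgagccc
PDGFRA inner start, chr4:54233710-54233959, plus strand, under a peak: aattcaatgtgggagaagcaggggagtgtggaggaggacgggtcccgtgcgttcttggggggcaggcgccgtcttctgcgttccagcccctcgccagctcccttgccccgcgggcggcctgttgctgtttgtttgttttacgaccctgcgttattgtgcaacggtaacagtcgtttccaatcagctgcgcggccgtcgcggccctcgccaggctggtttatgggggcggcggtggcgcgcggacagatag
PDGFRB start, chr5:150155846-150156095, minus strand, under a peak: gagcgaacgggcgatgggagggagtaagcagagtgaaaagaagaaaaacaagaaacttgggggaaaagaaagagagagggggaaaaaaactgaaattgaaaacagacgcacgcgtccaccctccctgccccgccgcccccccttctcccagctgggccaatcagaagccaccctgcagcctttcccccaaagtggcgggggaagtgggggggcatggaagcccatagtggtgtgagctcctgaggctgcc
KCNJ8 start, chr12:21774707-21774956, minus strand, no peak: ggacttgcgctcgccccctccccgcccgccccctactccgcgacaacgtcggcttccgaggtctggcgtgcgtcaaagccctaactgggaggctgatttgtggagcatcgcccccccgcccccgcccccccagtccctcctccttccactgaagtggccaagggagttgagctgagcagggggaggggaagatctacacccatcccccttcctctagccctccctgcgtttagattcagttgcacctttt

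In all, 67 peaks lay in the 10 genes and their flanks, 11 at ends, 34 inside and 22 in flanks. A peak at an end was found for 8 of the 10 genes, beside 72.8% of all protein-coding genes, and a peak anywhere in the gene or its flanks for 9 of 10, beside 89.8%. Both shares are near the background. With peaks of at least 4-fold only, 29 peaks remained, and 5 genes had one at an end, beside 56.0% of all protein-coding genes. A peak inside was found for 7 of 10, beside 55.9%. What varied was the number of peaks and their place, from 12 at CSPG4 to none at KCNJ8, and CNN1 and KCNJ8 were the genes with no peak at an end.

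**Figure D1:**
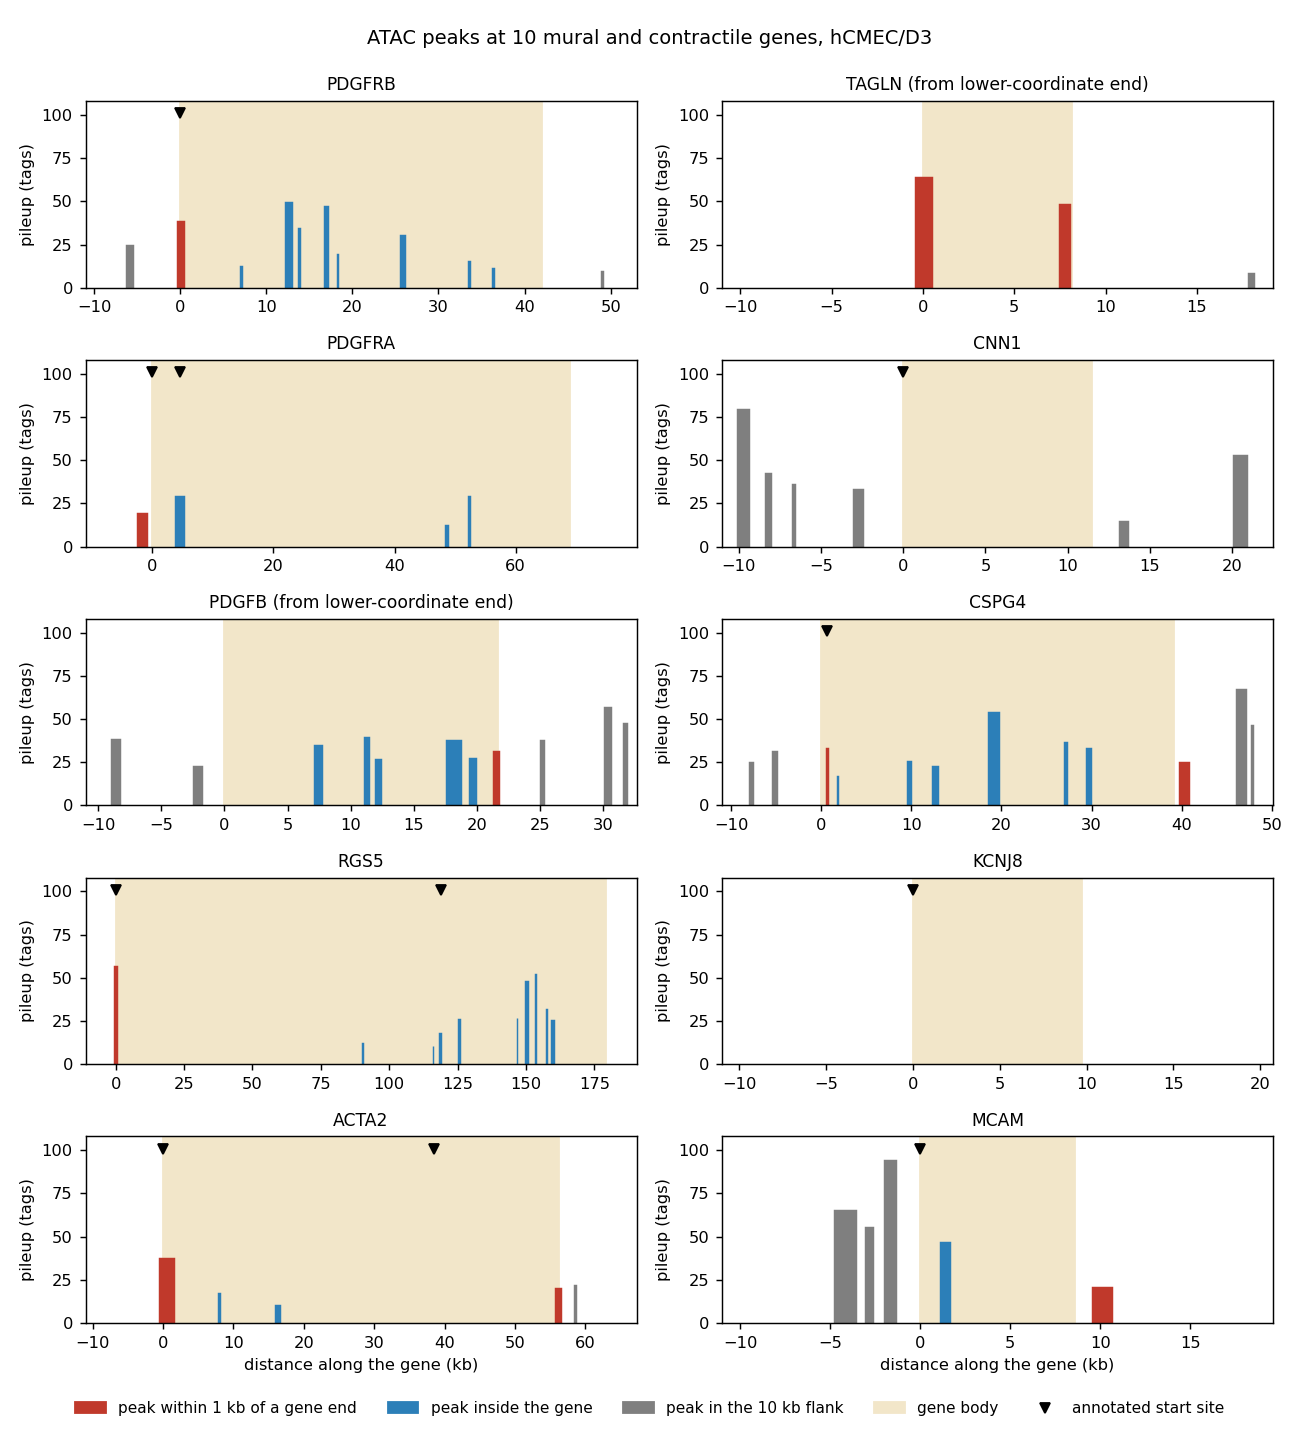
Each panel shows 1 gene. The horizontal axis is the distance in kb along the gene from its annotated start end in the direction of transcription (from the lower-coordinate end for PDGFB and TAGLN), and bars are peaks with their pileup in tags, drawn at their width plus a thin outline. KCNJ8 has no bar, CNN1 has bars only outside the gene, and the highest bar, 94.3 tags, lies just outside the start end of MCAM.

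The ligand gene PDGFB, whose product endothelial cells release toward mural cells, carried 11 peaks over 21624 bp and its flanks. Of these, 5 lay inside, 1 at an end and 5 in the flanks. Pileup ran from 22.7 to 56.9 tags with a median of 37.6. The end peak, at chr22:39244578-39245093, reached 31.6 tags, at a fold of 2.17. The most piled-up peak, at chr22:39253432-39253996 with 56.9 tags and a fold of 4.58, lay 8.45 kb outside the gene. None of the 11 peaks lay at an end of another protein-coding gene.

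The peaks at PDGFB stood on a high local background. The background implied by pileup and fold was above 10 tags at 7 of its 11 peaks, whereas 11.9% of all peaks in the list had at least 10 tags. A run of 5 neighbouring peaks between 39234382 and 39245093 on chromosome 22 had folds from 1.95 to 3.34 with pileups from 27.0 to 39.6 tags. Their background ran from 11.2 to 14.9 tags, compared with a median of 3.32 over all peaks.

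PDGFRB, the receptor tyrosine kinase of pericytes and smooth muscle cells, also carried 11 peaks, over 42007 bp and its flanks. Its start lay under a peak at chr5:150155436-150156198 that reached 38.5 tags, at a fold of 5.80. Inside the gene were 8 peaks with pileups from 11.3 to 49.7 tags. The highest pileup was at chr5:150142850-150143682, with a fold of 4.42, and the highest fold, 7.49, at chr5:150129747-150130373, with 30.3 tags. Of the inner peaks, 4 lay between 150137473 and 150143682, with 19.4 to 49.7 tags, and 4 outside that stretch, with 11.3 to 30.3 tags. The 2 flank peaks had 9.98 and 24.8 tags, the lower within the neighbouring gene CSF1R.

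PDGFRA, the related receptor that marks fibroblasts and oligodendrocyte precursors rather than mural cells, carried 4 peaks over a longer gene of 68953 bp. The outer start had no peak over it, and the nearest, at chr4:54226846-54228376, ended 0.917 kb upstream with 19.5 tags and a fold of 3.62. The limit of 1 kb thus decides its place. Among peaks outside the genes, just inside the limit were this peak and 1 of MCAM at 0.918 kb. Just beyond it were another of MCAM at 1.314 kb and 1 of CNN1 at 1.631 kb. The inner MCAM peak, 1.129 kb from the MCAM start, also lay just beyond the limit. The inner PDGFRA start, 4.667 kb downstream of the outer one, lay wholly under a peak of 1520 bp with 29.2 tags and a fold of 4.24. A short peak far inside the gene, at chr4:54281366-54281766, had nearly the same pileup, 29.2 tags, and the highest fold of the 67 peaks, 8.17. The last peak, at chr4:54277661-54278126, had 12.8 tags. No flank peak was called downstream of the gene.

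CSPG4 encodes the proteoglycan NG2, a surface marker of pericytes. It had the most peaks, 12 over 39145 bp and its flanks, with 2 at ends, 6 inside and 4 in the flanks. A peak of 273 bp at chr15:75712711-75712983 overlapped its annotated start, with 33.1 tags and a fold of 5.41, and covered 61.7% of the window from 250 bases before the start to 50 after. The strongest peak inside, at chr15:75693732-75694938, reached 53.8 tags over 1207 bp. The strongest of all, 67.3 tags with a fold of 5.39, lay 6.924 kb beyond the downstream end of the gene. None of the 12 lay at an end of another protein-coding gene.

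MCAM encodes CD146, an adhesion molecule found on endothelial cells and on pericytes. It had the highest pileup among the 10 genes, but not at its start. Upstream of the start lay 3 peaks, beginning 1.314, 2.636 and 3.558 kb from the gene, with pileups of 94.3, 55.6 and 65.7 tags. Inside the gene 1 peak, at chr11:119315486-119316001, had 47.1 tags. The nearest peak to the start itself was 1.129 kb away, and the end peak that counts for MCAM, with 20.9 tags at chr11:119306503-119307611, lay at the other end of the gene, within CBL and at the end of that gene.

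The median fold at MCAM, 2.44 over a range of 1.79 to 3.03, was the lowest of the 9 genes with peaks. The local background was 22.2 tags at the inner peak and from 26.4 to 30.6 tags at the 3 upstream peaks, while 1.30% of all peaks had at least 20 tags. A filter on fold and a filter on pileup therefore order this gene in opposite ways, and no MCAM peak reached a fold of 4.

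**Figure D2:**
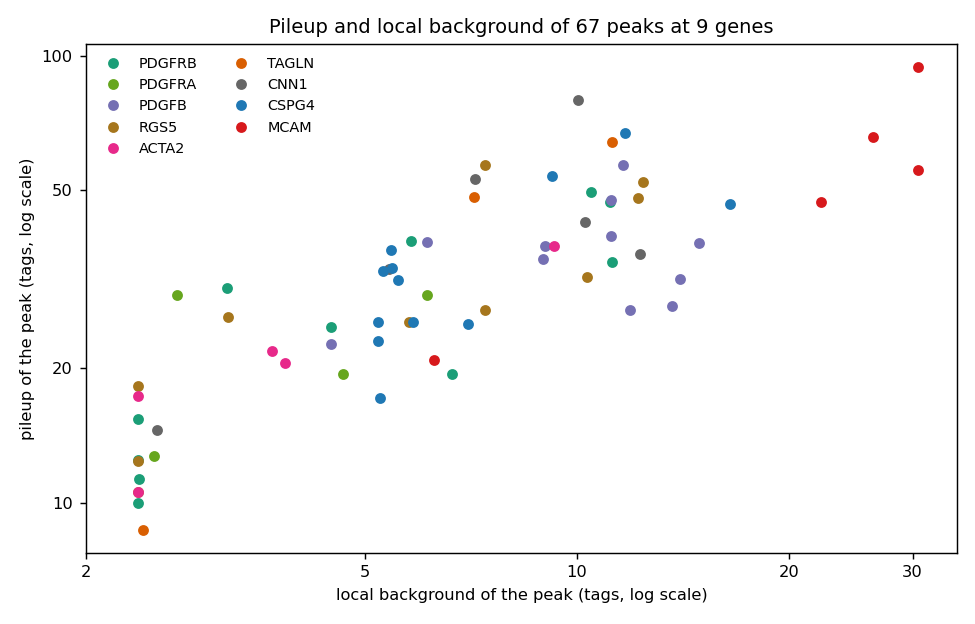
Each point is 1 of the 67 peaks, with the local background in tags on the horizontal axis and the pileup in tags on the vertical axis, both on log scales, coloured by gene. The 4 points at the far right are MCAM peaks between 22.2 and 30.6 tags of background, and the column of points at the left edge sits at the caller's lowest background of 2.37 tags.

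RGS5, a regulator of G-protein signalling and a common pericyte marker, is the longest of the genes at 179437 bp and carried 10 peaks. Both of its start sites, 118.819 kb apart, lay wholly under peaks. At the outer start the peak had 56.8 tags over 1110 bp with a fold of 6.89, and at the inner start 18.2 tags over 647 bp with a fold of 5.70. The outer peak also covered the start of NUF2, a kinetochore gene on the opposite strand. It covered that of LOC127814295 as well, annotated on the strand of RGS5 at the same base, 163321735. Accessibility of these starts cannot be told apart. The inner peak was shared with no other start site. A run of 5 peaks between 163161401 and 163175109 on chromosome 1 had pileups from 25.4 to 52.1 tags, and the first of these covered the start of the antisense gene RGS5-AS1.

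KCNJ8 encodes Kir6.1, the pore of the ATP-sensitive potassium channel of pericytes and smooth muscle. It had no peak in its 9752 bp or in the 10 kb on either side. The nearest peaks lay 84.271 kb away on the lower-coordinate side, with 15.8 tags, and 263.298 kb away on the other, with 11.9 tags. The stretch without a peak measured 357.319 kb, compared with a median of 8.777 kb between neighbouring peaks, and 0.692% of such intervals were as long or longer. That share counts intervals, not bases or genes. Long intervals take in more bases each, so it understates how much of the genome lies in them. ABCC9, the gene of the channel's regulatory subunit SUR2, was the only other protein-coding gene wholly inside the stretch around KCNJ8. Among the 500 protein-coding genes nearest to KCNJ8 in length, 69 (13.8%) likewise had no peak.

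ACTA2, the gene of smooth muscle alpha-actin, carried 5 peaks over 56264 bp and its flanks. The outer start lay under the widest of the 67 peaks, chr10:88989744-88991844, with 37.6 tags over 2101 bp and a fold of 3.76. The same peak overlapped 3 start windows of FAS, the death receptor gene on the opposite strand, and both inner peaks, with 10.6 and 17.4 tags, also lay within FAS. The inner start, 38.564 kb downstream, had no peak over it, and the nearest was 17.13 kb further downstream. That peak lay at the far end of the gene, chr10:88934832-88935643, with 20.6 tags and a fold of 4.45.

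The inner ACTA2 start was the only one of the 11 annotated starts whose 300-base window held a CArG box with 1 letter other than A or T allowed, and it held 2. They were CCCTATATGG, beginning 121 bases upstream, and CCTTGTTTGG, beginning 71 bases upstream, and the TEAD element GGAATG began 183 bases upstream. The strict CArG box, with A or T at all 6 middle letters, was in none of the 11 windows and in 1.25% of the 22199 start windows of protein-coding genes. With 1 such letter allowed, a search form chosen after the windows had been seen, the share was 7.58%. GGAATG was in 2 of the 11 windows, beside 12.2% of all, and TGANTCA in 1, at the outer PDGFRA start, beside 6.15%. The letters there were TGAATCA, with A in the middle, whereas the 6.15% counts any middle letter. These matches describe letters in the windows and do not show binding.

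TAGLN, the gene of the actin-binding protein transgelin (SM22-alpha), is the shortest of the 10 at 8172 bp and had peaks at both ends. The peak at its lower-coordinate end, chr11:117198840-117199810, had 64.3 tags and a fold of 5.35, the highest pileup of any end peak among the 10 genes. The peak at the other end, chr11:117206762-117207335, had 48.4 tags and a fold of 6.07, and it also lay within PCSK7, which overlaps that end. Peaks at both ends were found for 3 of the 10 genes (TAGLN, ACTA2 and CSPG4), beside 15.4% of all protein-coding genes. The only other TAGLN peak, in the flank, had 8.71 tags.

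CNN1, the gene of the smooth muscle protein calponin 1, had 6 peaks, all of them in its flanks. Its start was uncovered, and the nearest peak, chr19:11535831-11536394, ended 2.457 kb upstream with 33.3 tags and a fold of 5.37. The 2 strongest, with 79.6 and 53.0 tags, covered the starts of the neighbouring genes ECSIT and ELOF1, and a weaker one, with 14.5 tags, lay at the other end of ELOF1. That leaves 3 of the 6 away from the ends of other protein-coding genes, all upstream of CNN1, with 33.3 to 42.4 tags. Across the 10 genes, 5 of the 67 peaks (7.46%) lay at an end of another protein-coding gene, compared with 13.7% of such gene and peak pairs over all protein-coding genes. These counts use the outer ends of each gene, so the ACTA2 peak over start windows inside FAS is not among the 5.

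Start sites were then read together with their base composition. A peak overlapped 6 of the 11 start windows, beside 64.8% of all start windows of protein-coding genes. In windows with an observed to expected CpG ratio of at least 0.6, 87.8% of all and 3 of 5 among these genes had a peak, the ones without being KCNJ8 at 0.60 and MCAM at 0.64. In windows under 0.6, 26.9% of all and 3 of 6 among these genes had one. The covered windows of low ratio were the inner RGS5 start at 0.05, PDGFRB at 0.42 and CSPG4 at 0.53, and the uncovered ones the inner ACTA2 start at 0.27, CNN1 at 0.35 and the outer PDGFRA start at 0.53. The inner RGS5 window held 1 CpG in 300 bases and the outer one 28.

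The number of peaks was set against gene length by ranking each gene among the 500 protein-coding genes nearest in length, as the percentage with fewer peaks, ties counted with a weight of 0.5. PDGFB stood at 99.8, where the median of similar genes was 3 peaks, CSPG4 at 99.1 and PDGFRB at 97.8, both with a median of 4. CNN1 stood at 94.0 and MCAM at 87.4, both against a median of 3. RGS5 at 57.1, ACTA2 at 55.1 and TAGLN at 54.0 were near the middle, PDGFRA at 40.6 was below it, and KCNJ8 stood at 6.90. The median over the 10 genes was 72.3. When the peaks were limited to 4-fold or more, CSPG4 at 99.4 and CNN1 at 94.8 stayed high, PDGFRB stood at 89.4 with 5 peaks and PDGFB at 77.0 with 3. Under that filter MCAM fell to 9.80 with none and RGS5 to 26.5 with 3, whereas with as many peaks taken by pileup MCAM stood at 92.0 and RGS5 at 71.9.

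Ranks were also taken by place. For peaks inside the gene alone PDGFRB stood at 98.9, PDGFB at 98.8 and CSPG4 at 94.8, MCAM at 80.4, whereas CNN1, with none, stood at 28.9. For flank peaks CNN1 stood at 99.9, PDGFB at 98.8 and CSPG4 at 97.4, MCAM at 86.5 and PDGFRB at 73.7. PDGFB and CSPG4 were thus high in both places, and CNN1 in the flanks alone. These ranks by place used all peaks, without the 4-fold filter. The inner peaks of PDGFB had folds from 1.95 to 3.63, so none of them reached 4-fold.

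**Figure D3:**
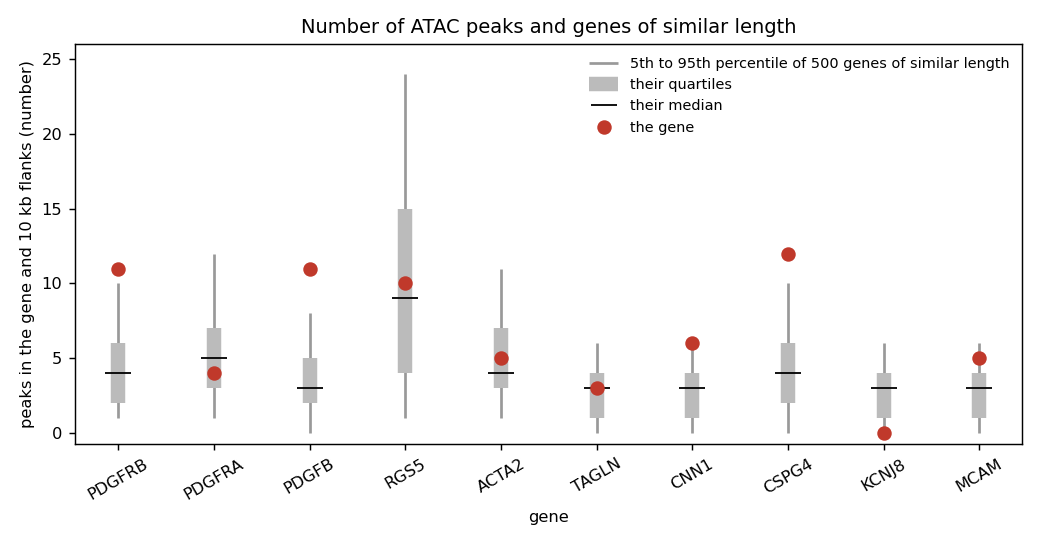
Red points give the number of peaks in each gene and its 10 kb flanks. Grey bars and lines give the quartiles and the 5th to 95th percentiles of the 500 protein-coding genes nearest in length, with their median as a black dash. PDGFRB, PDGFB and CSPG4 lie above the 95th percentile line, and KCNJ8 lies at 0.

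The pileup of end peaks was ranked in the same way. The highest end-peak pileup had a median of 35.4 tags over the 8 genes with an end peak, compared with 45.7 tags over the 14595 protein-coding genes with one. Of the 8, 6 stood below the middle of the genes of similar length with an end peak, from 11.3 for PDGFRA to 31.0 for ACTA2, and RGS5 and TAGLN stood above it at 76.9 and 75.1. For the highest pileup in any place, MCAM stood at 96.6, CNN1 at 89.0, CSPG4 at 75.0 and PDGFB at 62.0, and PDGFRA at 23.2. The CNN1 rank rests on the flank peak of 79.6 tags that covers the start of ECSIT. The end rank of RGS5 rests on the peak that also covers the start of NUF2. Over all places, the 67 peaks had a median pileup of 31.6 tags and a median width of 560 bp, compared with 23.2 tags and 476 bp for peaks in or within 10 kb of any protein-coding gene. Their median fold was 3.96, compared with 4.44, and their median local background 6.25 tags, compared with 3.78.

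The same values were taken for lists of related genes. The genes of each list were chosen rather than drawn at random, so the intervals below are no test against all protein-coding genes. Of 16 further genes of the contractile apparatus and paralogs of the 10 genes, 11 had an end peak (68.8%, with a 95% Wilson interval of 44.4% to 85.8%). The highest were CNN2 with 84.9 tags, TPM1 with 61.6 and TAGLN2 with 60.8, genes of calponin 2, a tropomyosin and transgelin 2. SMTN, CALD1, DES, ACTG2 and PLN had none, although CALD1, the gene of caldesmon, had 22 peaks inside. All 10 genes of the PDGF family and its signalling had an end peak (interval 72.2% to 100%, which includes the 72.8% of all protein-coding genes), the highest being SHC1 with 84.3 tags, PDGFC with 72.1 and PIK3R1 with 70.3.

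Among 8 genes of serum response factor and its partners, 6 had an end peak (75.0%, interval 40.9% to 92.9%), with SRF at 101.1 tags, ELK1 at 80.5 and MRTFA at 73.3. MYOCD, the gene of the smooth muscle coactivator myocardin, had no peak over its 103060 bp or in its flanks. MRTFB had none at an end and 20 inside.

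Markers of endothelium, of mural cells and of fibroblasts were read in the same way. The lists were chosen with earlier results of these data known, so they are no independent check of the cell type. An end peak is also not particular to endothelial markers, as all 10 genes of the PDGF list had one. All 15 endothelial markers had an end peak (Wilson interval 79.6% to 100%), led by EGFL7 with 75.0 tags, ROBO4 with 73.0 and CDH5 with 62.7. The lowest, chosen after their values were seen, were EMCN with 10.01 tags, ERG with 10.98 and VWF with 13.2. Their median of 41.8 tags was below the 45.7 of all protein-coding genes with an end peak, as was the 35.4 of the 10 genes described here. Of 11 further mural and pericyte markers 6 had one (54.5%, interval 28.0% to 78.7%), led by TBX18 with 65.6 tags, RGS4 with 54.5 and ANPEP with 44.9. ABCC9, NOTCH3, ATP13A5, COX4I2 and COXFA4L2 had none at an end. In the gene or its flanks NOTCH3 had 6 peaks, COXFA4L2 5, ATP13A5 and COX4I2 2 each, and ABCC9 no peak. Of 9 fibroblast markers, 3 had one (33.3%, interval 12.1% to 64.6%), namely COL1A1 with 53.4 tags, FAP with 40.4 and COL1A2 with 28.0. The interval of the mural markers includes the 72.8% of all protein-coding genes, as does that of the 10 genes described here, 49.0% to 94.3%. Intervals cover the number of genes only, and genes are not replicates. By number of peaks among genes of similar length, the median rank was 90.4 for the endothelial markers, 84.9 for the further mural markers, 79.2 for the contractile list, 77.7 for the PDGF list and 74.0 for the SRF list. Each was above the 72.3 of the 10 genes, and the fibroblast markers stood at 20.8.

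**Figure D4:**
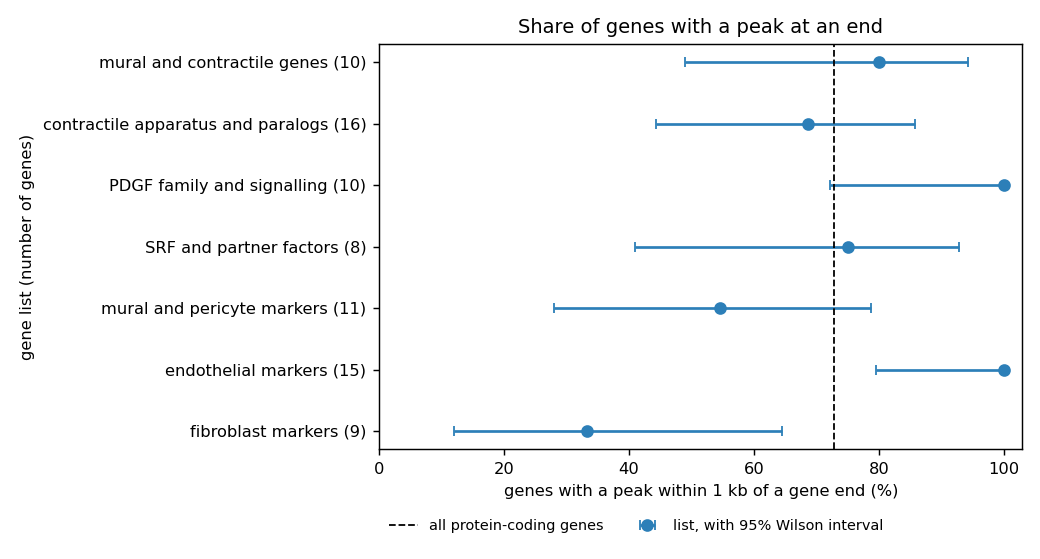
Points give the percentage of the genes of each list with a peak within 1 kb of either end, with 95% Wilson intervals, and the dashed line marks all protein-coding genes at 72.8%. The 10 mural and contractile genes at 80.0% have an interval that includes the line, the endothelial markers lie above it at 100% and the fibroblast markers below it at 33.3%. The genes were chosen, so the intervals are no test.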

How the data were processed

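The ATAC library of hCMEC/D3 was analysed, and the 2 RNA libraries were not used. Per the file headers, MACS 2.2.7.1 made the deposited list of broad peaks. For every peak the authors give a pileup (a signal in tags), the ratio to background (fold), and the p-value and q-value as −log10. Peaks were called without a control, in single-end mode, at q of 0.05 and 0.1 for strong and broad regions, with an effective genome size of 1870000000 bp, the caller's mouse preset. That size sets the lowest background, 2.37 tags, and a larger size would lower that floor and raise the fold of peaks on it. The header gives 31532245 tags, of which 22188172 remained. Per the submitters' processing notes, Bowtie2, SAMtools 1.13 and Picard were also used, and GRCh38 is the human build named.

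Peaks were set against RefSeq tables of GRCh38.p14. A peak overlapped 64.8% of 22199 start windows of protein-coding genes as given and 4.95% to 6.47% after shifts of 2 to 50 kb. An overlap of at least 1 bp counted. Local background was computed as (pileup + 1)/fold − 1. The planned summit pileup was replaced by the deposited pileup, a mean over each broad peak. Exon and intron annotation was not used. Placement was tested on simulated data, where 2000 of 2000 genes came out right. The simulated peaks lay clear of the 1 kb limit and the genes did not overlap, so peaks near that limit were not tested. The genes and lists were chosen with earlier results of these data known. All 10 genes are named. Of each list, the 3 with the highest end-peak pileup are named, and those without an end peak where 5 or fewer. NDUFA4L2 was matched as COXFA4L2. Python 3.11.15 with pandas 2.3.3 was used.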

Additional observations from a re-analysis of the deposited data

How the results depend on the processing

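Of 37 alternative values, 34 lay within 1.5 times the reported one. Those that moved further were the number of genes with an end peak, 5 instead of 8 with peaks of at least 4-fold only, and 5 when only annotated start windows were counted for the 8 genes that have them. The number of peaks was 29 instead of 67 at 4-fold. The share of all protein-coding genes with an end peak fell to 56.0% at 4-fold as well. The bound of 1.5 times is wide. The counts of genes and the median rank could not exceed it upward, and a median rank at the middle would lie within it. The 34 of 37 is thus no measure of stability. An end window of 2500 bp gave 9 genes, adding CNN1, and one of 500 bp gave 6, without PDGFRA and MCAM. The median rank by peak number ran from 57.9 at 4-fold to 80.7 with as many peaks taken by pileup. Without peaks at ends of other protein-coding genes, 6 genes had an end peak, RGS5 and MCAM dropping out, beside 55.5% of all protein-coding genes. A −log10 q of at least 5 also gave 6, without PDGFB and MCAM. An overlap of at least 200 bp gave 6, without PDGFRA and MCAM. Leaving out peaks at ends of other protein-coding genes and counting start windows were alternatives added once the data had been seen. The others were planned. No paired analysis was possible because no result comes from a test. An absent peak is limited by depth and by local background, and no second ATAC library was analysed here.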
